A study of Mus musculus with 4 samples.

Results

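The genes described here are 10 genes of the prostaglandin and leukotriene pathway, chosen by name for what their products do: Ptgs1, Ptgs2, Ptges, Hpgds, Alox5, Alox5ap, Lta4h, Ltc4s, Ltb4r1 and Alox15. Each of the 10 was present among the 16308 genes of the count tables. They were followed in CD45+ leukocytes sorted from the muscularis externa, the outer muscle coat, of the mouse small intestine after surgical intestinal manipulation. WT animals were of the C57BL/6J strain and CCR2-/- animals of the strain B6.129S4-Ccr2tm1Ifc/J, whose label reads Ccr2-/-, and the mice were 12 weeks old. CCR2 is the chemokine receptor that monocytes use to leave the bone marrow, and the lesion is present in every cell of the animal and not restricted to monocytes. There was 1 library for each genotype at 24 h and at 72 h post-injury, each pooled from several mice, which gives 4 libraries in all, and libraries from uninjured muscularis were not analysed here.

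Prostaglandins and leukotrienes are short-lived lipid signals that leukocytes make from arachidonic acid released from their membranes. The cyclooxygenases encoded by Ptgs1 and Ptgs2 turn it into prostaglandin H2, from which Ptges and Hpgds make prostaglandin E2 and prostaglandin D2, whereas 5-lipoxygenase, encoded by Alox5, with its membrane partner FLAP, encoded by Alox5ap, makes leukotriene A4. Lta4h converts leukotriene A4 to leukotriene B4, a neutrophil attractant sensed by the receptor Ltb4r1, Ltc4s converts it to the cysteinyl leukotriene C4, and Alox15 oxygenates arachidonic acid at another carbon. In the gut wall, prostaglandins made through Ptgs2 after bowel handling are known to slow the muscle.

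Total UMI counts, that is counts of distinct captured transcripts, lay between 9736725 and 21206308 per library, and the median per cell between 3281.5 and 12859. Of 5811 cells, 5799 were used, and they were grouped by their markers into classes named here for this purpose. Monocyte/Mφ-like cells numbered 1278 in WT and 220 in CCR2-/- mice at 24 h, and 880 and 148 at 72 h. Neutrophil-like cells numbered 295 and 1290 at 24 h, and 87 and 235 at 72 h. A cluster with high Siglecf, kept apart as Siglecf-high granulocytes, held 12 and 45 cells at 24 h and 105 and 356 at 72 h, and its neutrophil marker list (9 genes) summed to 24235 to 34289 CPM. The eosinophil list, of which 4 of 5 genes were in the tables and Siglecf was 1, summed to 167 to 688 CPM there, with Siglecf at 167 to 684 CPM and no UMI of Il5ra and Prg2, against 41.1 to 108 CPM in neutrophil-like cells. Dendritic cell-like cells numbered 60 and 60 at 24 h and 140 and 126 at 72 h. Levels are given as CPM, a gene's share of the UMIs of a class in a library scaled to 1000000, with exact Poisson 95% intervals that cover counting error only. With 1 library per group there was no replicate and no test, and a difference between genotypes cannot be told apart from a difference between libraries. Ccr2 itself stood at 755 CPM at 24 h and 1063 CPM at 72 h in WT monocyte/Mφ-like cells against 95.2 and 83.2 CPM in those of CCR2-/- mice, and where the 3′ reads fall relative to the deleted part of the gene is not given in the sources used here.

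The upstream sequences of 4 of the genes are shown, as examples: both cyclooxygenases, the lipoxygenase of the leukotriene branch and the leukotriene B4 receptor. RefSeq windows of 250 bases before and 50 after the start (GRCm38.p6) were found for 8 of the 10 genes, and 5 short motifs were searched in them. The motif GAGGAA, the core bound by the myeloid factor PU.1, was found on either strand in 8 of 8 windows, and in 28.3% of 32851 windows of mouse genes. The GC box GGGCGG was found in 4 of 8 (Ptgs2, Ptges, Alox5 and Ltb4r1) and in 35.7% of all windows, and the TATA box TATAAA on the strand of the gene in 0 of 8 and in 8.32% of all. The bases before the start are given 5′ to 3′ on the strand of the gene, with GAGGAA and GGGCGG, or their reverse complements, in capitals. The coordinates are chr1:150099781-150100030 (plus strand) for Ptgs2, which overlaps an exon of the noncoding Ptgs2os, chr2:36230176-36230425 (plus) for Ptgs1, chr6:116461179-116461428 (minus) for Alox5 and chr14:55765712-55765961 (plus) for Ltb4r1.
Ptgs2: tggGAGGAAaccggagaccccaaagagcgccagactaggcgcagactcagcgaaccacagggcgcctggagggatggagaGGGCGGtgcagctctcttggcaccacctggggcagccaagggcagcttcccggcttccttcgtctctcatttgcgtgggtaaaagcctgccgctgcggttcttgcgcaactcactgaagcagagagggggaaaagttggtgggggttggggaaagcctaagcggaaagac
Ptgs1: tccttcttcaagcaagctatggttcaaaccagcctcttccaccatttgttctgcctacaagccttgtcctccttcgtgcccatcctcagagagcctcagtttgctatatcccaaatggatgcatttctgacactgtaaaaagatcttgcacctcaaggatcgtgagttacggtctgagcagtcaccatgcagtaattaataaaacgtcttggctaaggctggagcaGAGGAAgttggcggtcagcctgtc
Alox5: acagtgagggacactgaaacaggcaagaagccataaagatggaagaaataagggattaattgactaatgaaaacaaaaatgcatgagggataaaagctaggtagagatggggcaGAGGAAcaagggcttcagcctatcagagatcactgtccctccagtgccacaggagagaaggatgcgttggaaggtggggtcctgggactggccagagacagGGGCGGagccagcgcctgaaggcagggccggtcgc
Ltb4r1: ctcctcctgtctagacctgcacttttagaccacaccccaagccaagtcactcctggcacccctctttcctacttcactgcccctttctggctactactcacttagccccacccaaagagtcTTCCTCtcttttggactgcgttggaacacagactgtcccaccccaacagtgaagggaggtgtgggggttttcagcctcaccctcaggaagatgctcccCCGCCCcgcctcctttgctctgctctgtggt
Just after its start, at chr1:150100038-150100058 on the plus strand, Ptgs2 alone of the 8 windows held CGTCA, the core of the cyclic AMP response element, and the E box CACGTG. The matches overlap in the stretch shown next, in which both together are in capitals.
Ptgs2 start: ccactaCGTCACGTGgagtcc
CGTCA occurred on either strand in 20.8% and CACGTG in 7.15% of all windows. These matches describe letters and were not tested as binding sites.

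The 10 genes fell into distinct cellular patterns. Ptgs2, Alox5 and Ptgs1 stood high in Siglecf-high granulocytes, the first pair with neutrophil-like cells next and Ptgs1 with monocyte/Mφ-like cells at 72 h, Alox5ap stood highest in neutrophil-like cells, Hpgds in monocyte/Mφ-like cells, Lta4h in dendritic cell-like and lymphoid cells, and Ltc4s in Siglecf-high granulocytes and in the Mφs of 72 h. Ltb4r1 was spread over neutrophil-like, dendritic cell-like and T cell-like cells, and Alox15 was held by very few cells. Over the 5799 cells, Alox5ap gave 42556 UMIs and Ptgs2 18748, while Alox15 gave 492 UMIs in 32 cells and Ptges 116 UMIs in 68 cells. The other 6 gave between 1529 (Alox5) and 6857 (Ltb4r1). In bulk or pooled values of this kind, fewer cells of a type and less RNA per cell cannot be told apart, so levels are given class by class.

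**Figure D1:**
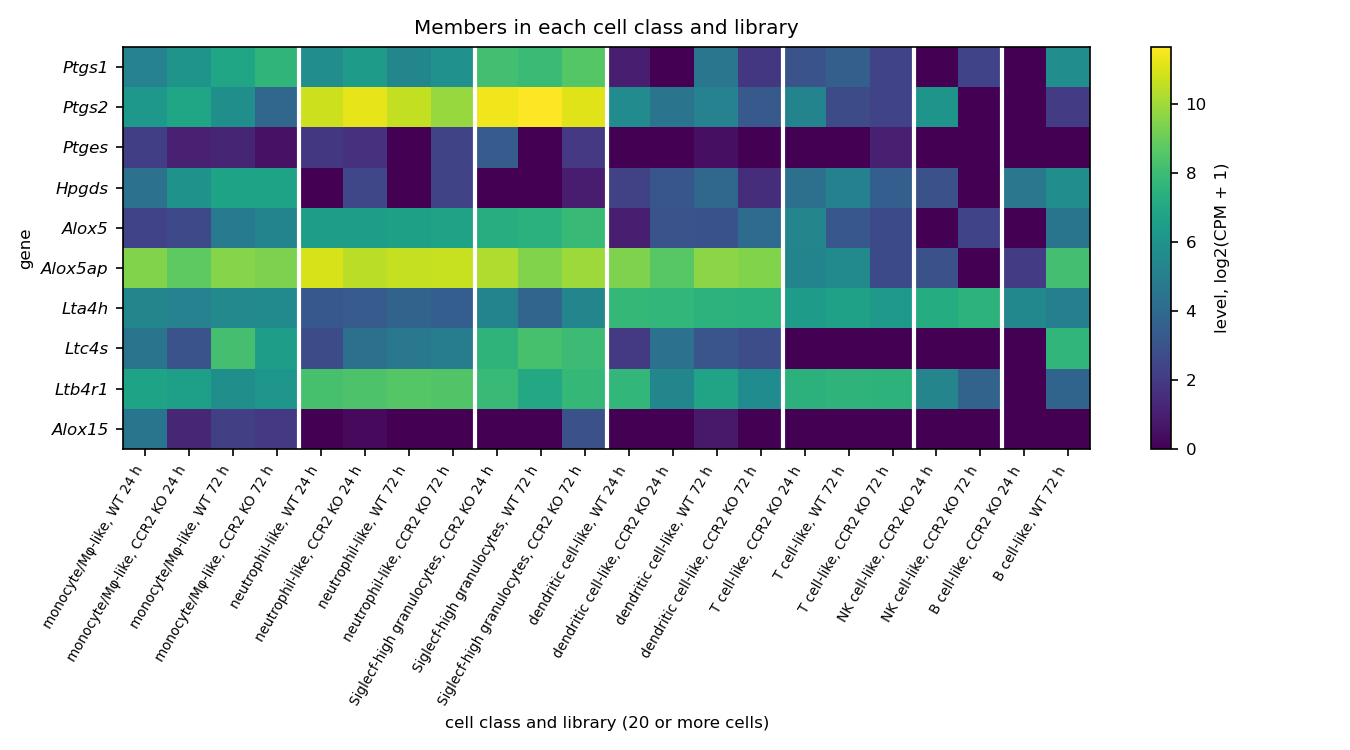
Heat map of the level of the 10 genes, as log2(CPM + 1), in the 22 combinations of cell class and library (WT or CCR2 KO, 24 h or 72 h) with 20 or more cells, with white lines between classes. Ptgs2 is brightest in neutrophil-like cells and Siglecf-high granulocytes, Alox5ap in neutrophil-like cells, and Ptges is dark throughout.

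Ptgs2, the inducible cyclooxygenase (chromosome 1, 150100031 to 150108227), had its highest levels in granulocytes. In neutrophil-like cells it stood at 1704 CPM (1611 to 1802) in WT and 2394 CPM (2347 to 2442) in CCR2-/- mice at 24 h, and at 1508 CPM (1359 to 1668) and 914 CPM (861 to 970) at 72 h. The CCR2-/- library was thus the highest at 24 h and the lowest at 72 h, and no counting intervals overlapped but those of the WT libraries. The log2 ratio of CCR2-/- to WT was 0.49 at 24 h and -0.72 at 72 h, and within CCR2-/- mice the level at 72 h was past 2-fold below that at 24 h, with a log2 ratio of -1.39 (-1.48 to -1.30). That ratio was -0.66 with the Siglecf-high granulocytes counted as neutrophil-like.
In Siglecf-high granulocytes Ptgs2 reached 2708 CPM (CCR2-/- 24 h), 3188 CPM (WT 72 h) and 2175 CPM (CCR2-/- 72 h). These exceeded the neutrophil-like levels, save that 2175 CPM lay below the 2394 CPM of CCR2-/- mice at 24 h. Monocyte/Mφ-like cells held 73.3 (WT) and 117 CPM (CCR2-/-) at 24 h, and 53.8 and 13.3 CPM at 72 h. The last value rested on 28 UMIs in 12 cells, 10 of them in 1 cell. It was past 2-fold below WT, with a log2 ratio of -1.94 (-2.62 to -1.47), and past 2-fold below its own 24 h level, at -3.04 (-3.74 to -2.58).

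To set depth aside, cells were thinned to 1000 UMIs each, which left out 18 (WT) and 14 (CCR2-/-) neutrophil-like cells at 24 h and 1 and 6 at 72 h. Ptgs2 was then seen in 53.4% of WT and 69.4% of CCR2-/- neutrophil-like cells at 24 h, and in 48.8% and 48.0% at 72 h. The share was 62.2% to 67.3% in Siglecf-high granulocytes of the 3 libraries with over 20 such cells, and 1.53% to 10.2% in monocyte/Mφ-like cells. In lymphoid cells, which stand for background here, it was 3.57% and 2.67% at 24 h and 0% at 72 h, where 0 of 102 and 0 of 171 cells allow up to 2.94% and 1.75%. The monocyte/Mφ-like share of 2.99% in WT and 1.53% in CCR2-/- mice at 72 h lay near these upper limits and above the 0% seen. The granulocyte share lay well above both. Before thinning, monocyte/Mφ-like cells of WT mice at 72 h held 36.0% of Ptgs2 UMIs with 75.6% of all UMIs. T cell-like cells of that library held 0.11% of Ptgs2 UMIs with 2.30% of all UMIs. Unthinned, neutrophil-like cells gave 65.5% to 80.9% and lymphoid cells 2.34% to 3.97%, at median depths of 2099 to 4687 and 4942 to 7364 UMIs.

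Neutrophil-like cells were not uniform for Ptgs2. In CCR2-/- mice at 24 h, it stood at 2542 CPM in the cluster led by Il1f9 and Hcar2, 2695 CPM in the cluster led by Egln3 and Cxcr2, 2927 CPM in the interferon gene cluster led by Ifit3b and Rsad2, and 1080 CPM in the cluster led by Retnlg and Ly6g. The last of these was the lowest of the 5 clusters of the class, and the fifth, led by Lcn2 and Steap4, stood at 2211 CPM. At 72 h in CCR2-/- mice, the Il1f9-led cluster stood at 709 CPM and the Egln3-led cluster at 1943 CPM. The clusters holding most cells also changed: the Il1f9-led cluster had 570 of 1290 neutrophil-like cells of CCR2-/- mice at 24 h and 65 of 235 at 72 h, and the Retnlg-led cluster 108 and 85.

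Ptgs1, the constitutive cyclooxygenase (chromosome 2, 36230426 to 36252272), was higher in monocyte/Mφ-like cells at 72 h, where Ptgs2 was lower. Its level was 35.3 CPM (32.7 to 38.1) in WT and 64.4 CPM (56.4 to 73.2) in CCR2-/- mice at 24 h, and 119 CPM (113 to 125) and 197 CPM (179 to 217) at 72 h. The 4 intervals did not overlap, both 72 h libraries lay above both 24 h libraries, and CCR2-/- lay above WT at each time. The difference between 24 h and 72 h was past 2-fold in WT, with a log2 ratio of 1.72 (1.62 to 1.88), and in CCR2-/- mice, at 1.60 (1.38 to 1.85). The latter was 0.58 among cells with at most 5% mitochondrial UMIs. The genotype ratios of 0.85 at 24 h and 0.73 at 72 h were under 2-fold. Siglecf-high granulocytes held 289 CPM (CCR2-/- 24 h), 244 CPM (WT 72 h) and 376 CPM (CCR2-/- 72 h), and neutrophil-like cells 40.1 to 84.4 CPM. In dendritic cell-like cells Ptgs1 stood at 22.6 CPM in WT at 72 h and below 3 CPM in each of the other 3 libraries.

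**Figure D2:**
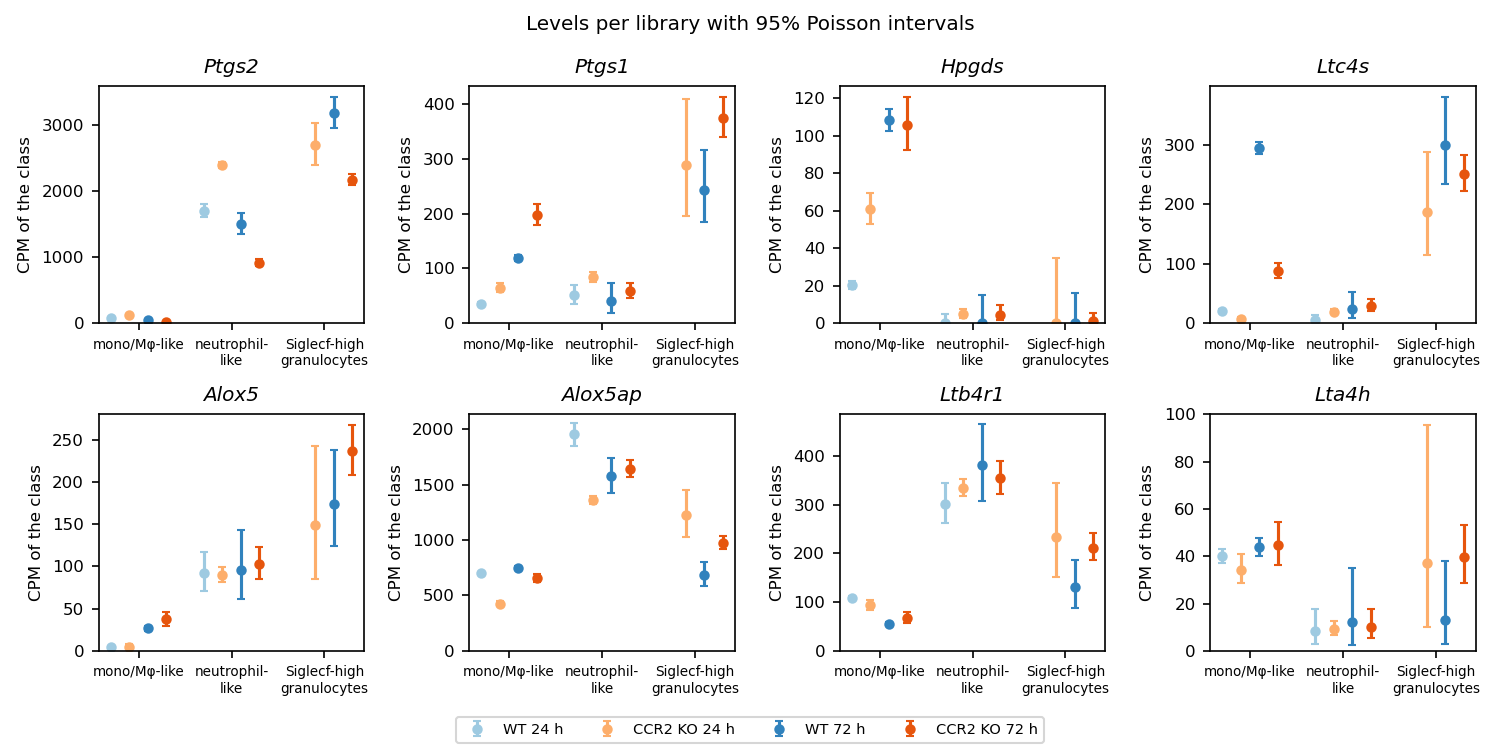
Levels of 8 of the genes in CPM (linear axes from 0, one scale per gene) in 3 cell classes, with 1 point per library and bars for exact 95% Poisson intervals. Siglecf-high granulocytes of WT mice at 24 h (12 cells) are left out, and Ltc4s in monocyte/Mφ-like cells of WT mice at 72 h, at 295 CPM, lies far above the other 3 libraries of that class.

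Among the enzymes that act on prostaglandin H2, Ptges, the inducible prostaglandin E synthase (chromosome 2, 30889471 to 30929863), was hardly detected. Of its 116 UMIs, 68 lay in monocyte/Mφ-like cells of WT mice at 24 h, at 3.53 CPM, and it stayed below 20 CPM in each class and library with 20 or more cells, so that no ratio was called. Neutrophil-like cells, rich in Ptgs2, gave 2, 9, 0 and 5 UMIs in WT 24 h, CCR2-/- 24 h, WT 72 h and CCR2-/- 72 h. Their levels were 2.74, 2.20, 0 and 4.22 CPM, against 3.53, 1.10, 1.27 and 0.48 CPM in monocyte/Mφ-like cells. On so few UMIs the classes were not ranked.
Hpgds, the hematopoietic prostaglandin D synthase (chromosome 6, 65117293 to 65144908), was a gene of monocyte/Mφ-like cells, which held 98.2% (WT) and 81.9% (CCR2-/-) of its UMIs at 24 h, and 95.3% and 89.9% at 72 h. Of all UMIs, the class held 90.8% and 34.9% at 24 h, and 75.6% and 21.9% at 72 h. Its level there was 20.1 CPM (18.1 to 22.2) in WT and 60.8 CPM (53.0 to 69.3) in CCR2-/- mice at 24 h, and 108 CPM (102 to 114) and 106 CPM (92.1 to 120) at 72 h. The genotypes differed past 2-fold at 24 h, with a log2 ratio of 1.55 (1.35 to 1.84), and at 72 h the ratio was -0.03 (-0.25 to 0.17). In WT the level at 72 h was past 2-fold above that at 24 h, at 2.37 (2.26 to 2.59), and in CCR2-/- mice the same ratio was 0.79 (0.52 to 1.07). Neutrophil-like cells held 0 to 4.65 CPM.
After thinning, Hpgds was seen in 1.498% and 5.12% of monocyte/Mφ-like cells at 24 h and in 10.4% and 13.7% at 72 h, in WT and CCR2-/- mice, with 0% to 5% in the few B cell-like cells.

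In the leukotriene branch, Alox5ap (chromosome 5, 149264767 to 149288153) was abundant in all myeloid classes. Neutrophil-like cells held 1952 CPM (1852 to 2056) in WT and 1362 CPM (1326 to 1398) in CCR2-/- mice at 24 h, and 1576 CPM (1424 to 1740) and 1643 CPM (1570 to 1717) at 72 h. Monocyte/Mφ-like cells held 700 CPM and 425 CPM at 24 h, and 747 CPM and 654 CPM at 72 h. CCR2-/- cells at 24 h were thus the lowest library of both classes, and of dendritic cell-like cells too, at 395 CPM against 660 to 796 CPM, yet no log2 ratio of Alox5ap in the comparisons of these classes was past 2-fold. Among cells with at most 5% mitochondrial UMIs, that of monocyte/Mφ-like cells of CCR2-/- mice over time was 1.06. In Siglecf-high granulocytes Alox5ap stood at 1223 CPM in CCR2-/- 24 h, 684 CPM in WT 72 h and 976 CPM in CCR2-/- 72 h. There the CCR2-/- library of 24 h was the highest of those shown. Alox5ap was all but absent from innate lymphoid cell-like and NK cell-like cells, with at most 1 UMI in a library.
Alox5 itself (chromosome 6, 116410077 to 116461178) was level in neutrophil-like cells, at 91.7 CPM (71.1 to 117), 90.0 CPM (81.1 to 99.7), 96.2 CPM (61.7 to 143) and 103 CPM (85.6 to 123) in WT 24 h, CCR2-/- 24 h, WT 72 h and CCR2-/- 72 h, with overlapping intervals. Siglecf-high granulocytes held 149, 174 and 237 CPM in CCR2-/- 24 h, WT 72 h and CCR2-/- 72 h. Monocyte/Mφ-like cells differed by time instead, with 4.10 CPM and 4.95 CPM at 24 h and 26.6 CPM and 37.1 CPM at 72 h in WT and CCR2-/- mice. The 72 h libraries were past 2-fold above those of 24 h in WT, with a log2 ratio of 2.44 (2.34 to 3.07), and in CCR2-/- mice, at 2.68 (2.15 to 3.73), while the genotype ratio at 72 h was 0.46 (0.10 to 0.84). The ratio of 72 h to 24 h was 1.80 in WT with a pseudocount of 5 CPM, and 1.33 in CCR2-/- mice among cells with at most 5% mitochondrial UMIs. In CCR2-/- mice, 18 UMIs stood behind the 24 h value.

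Lta4h, which makes leukotriene B4 (chromosome 10, 93453411 to 93484875), stood highest in dendritic cell-like and NK cell-like cells. Dendritic cell-like cells held 218 CPM (190 to 248) in WT and 207 CPM (183 to 233) in CCR2-/- mice at 24 h, and 182 CPM (167 to 199) and 171 CPM (158 to 185) at 72 h. The log2 genotype ratio there was -0.07 (-0.34 to 0.19) at 24 h and -0.09 (-0.27 to 0.08) at 72 h, both intervals spanning 0. NK cell-like cells of CCR2-/- mice held 146 CPM at 24 h and 185 CPM at 72 h, T cell-like cells 75.5 to 99.3 CPM in the 3 libraries with 20 or more of them, and monocyte/Mφ-like cells 34.4 to 44.7 CPM. Neutrophil-like cells, at 8.21 to 12.0 CPM, were the lowest of the myeloid classes.
Ltc4s, the cysteinyl leukotriene synthase (chromosome 11, 50236461 to 50238616), differed past 2-fold in each of the 4 comparisons of monocyte/Mφ-like cells. It stood at 21.04 CPM (19.04 to 23.2) in WT and 6.88 CPM (4.45 to 10.2) in CCR2-/- mice at 24 h, and at 295 CPM (285 to 304) and 88.0 CPM (75.7 to 102) at 72 h. The CCR2-/- library was below WT at both times, with log2 ratios of -1.48 (-2.26 to -1.03) on 25 UMIs and -1.73 (-1.97 to -1.53), and the 72 h library was above the 24 h library in both genotypes, at 3.75 (3.66 to 3.96) in WT and 3.50 (3.07 to 4.34) in CCR2-/- mice.
In Siglecf-high granulocytes the levels were 187, 301 and 251 CPM in CCR2-/- 24 h, WT 72 h and CCR2-/- 72 h, and in neutrophil-like cells 5.48, 18.3, 24.1 and 28.7 CPM. The neutrophil-like ratio of WT 72 h to WT 24 h, 1.95 (0.06 to 4.40), was past 2-fold but compared 6 UMIs with 4 and turned to -1.86 when the libraries were clustered one at a time. Among lymphoid cells, Ltc4s had no UMI in the T cell-like, innate lymphoid cell-like and NK cell-like classes, while B cell-like cells of WT mice at 72 h held 63 UMIs, most of them in 1 cell, and also Lyz2, a myeloid gene, at 9596 CPM.

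Ltb4r1, the high-affinity leukotriene B4 receptor (chromosome 14, 55765962 to 55768494), stood at 301 CPM (263 to 344), 335 CPM (317 to 353), 381 CPM (308 to 466) and 354 CPM (321 to 390) in neutrophil-like cells of WT 24 h, CCR2-/- 24 h, WT 72 h and CCR2-/- 72 h. These 4 intervals overlapped. Siglecf-high granulocytes held 233 CPM (CCR2-/- 24 h), 131 CPM (WT 72 h) and 212 CPM (CCR2-/- 72 h). Monocyte/Mφ-like cells held 108 CPM and 94.1 CPM at 24 h and 54.7 CPM and 67.5 CPM at 72 h, lower at the later time in both genotypes with log2 ratios of -0.97 (-1.11 to -0.86) in WT and -0.47 (-0.77 to -0.19) in CCR2-/- mice. The latter was 1.10 among cells with at most 5% mitochondrial UMIs.
Dendritic cell-like cells differed by genotype. Ltb4r1 stood there at 206 CPM (179 to 236) in WT and 40.0 CPM (29.97 to 52.3) in CCR2-/- mice at 24 h, and at 110 CPM (97.9 to 123) and 49.9 CPM (42.9 to 57.7) at 72 h. Both CCR2-/- libraries lay below both WT libraries, past 2-fold at each time, with log2 ratios of -2.33 (-2.83 to -1.92) and -1.13 (-1.41 to -0.87). T cell-like cells held 180 CPM at 24 h and 180 CPM at 72 h in CCR2-/- mice and 188 CPM in WT mice at 72 h, most of it in a cluster led by Trdc and Calca. Only 65.8% of the cells of that cluster were gated to T cells, and Gata3 and Cpa3 were also among its leading genes.
Alox15, the 12/15-lipoxygenase (chromosome 11, 70344152 to 70352031), gave 426 of its 492 UMIs in the WT library of 24 h, where 14 monocyte/Mφ-like cells held them and 1 cell held 71. The class stood at 22.1 CPM there, 1.38 CPM in CCR2-/- mice at 24 h (5 UMIs), 3.58 CPM in WT at 72 h (45 UMIs, 25 of them in 1 cell) and 2.85 CPM in CCR2-/- mice at 72 h (6 UMIs). The ratios that this gene passed therefore rest on a few cells.

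Set side by side, the monocyte/Mφ-like cells of CCR2-/- mice at 24 h were higher than WT for Hpgds and lower for Ltc4s and Alox15. These were 3 of the 8 genes that reached 20 CPM in at least 1 of the libraries compared, and 3.95% of all genes tested in this comparison were past 2-fold in either direction. Ltc4s and Alox15 reached 20 CPM only in WT, where they were higher, at 21.04 and 22.1 CPM. A gene that qualifies only through its higher library is called more readily, so the count is partly set by this limit. At 72 h, 2 of 8 were past 2-fold, Ptgs2 and Ltc4s, both lower, against 7.83% of all genes, and Ptgs2 reached 20 CPM only in WT. The CCR2-/- values of 72 h depended on the limit for mitochondrial UMIs: at 5%, 40 of the monocyte/Mφ-like cells of that library remained, 4 genes were past 2-fold, and the log2 ratios to WT were -2.94 for Ptgs2, -2.37 for Ltc4s, -1.42 for Hpgds, -0.28 for Ptgs1, -0.66 for Alox5 and 1.87 for Ltb4r1. Hpgds and Ltb4r1 thus crossed 2-fold, and Ptgs1 and Alox5 had the other sign. The share of all genes past 2-fold at that limit is not given here, so the count of 4 stands without it. The median log2 ratio of the genes tested was -0.21 at 24 h, against -0.07 over all genes, and 0.00 at 72 h, against 0.13.
More of them were past 2-fold between the times than between the genotypes, as was a larger share of all genes. Between 24 h and 72 h in WT monocyte/Mφ-like cells, 5 of 9 were past 2-fold: Ptgs1, Hpgds, Alox5 and Ltc4s higher and Alox15 lower, against 12.7% of all genes. Of these, Alox5 reached 20 CPM only at 72 h and Alox15 only at 24 h. In CCR2-/- mice, 4 of 8 were, with Ptgs1, Alox5 and Ltc4s higher and Ptgs2 lower, against 14.6% of all genes. Here Alox5 and Ltc4s reached 20 CPM only at 72 h and Ptgs2 only at 24 h. Each library enters a comparison of times and a comparison of genotypes, so these 4 comparisons are not independent.
In neutrophil-like cells, 0 of 5 were past 2-fold between the genotypes at 24 h and 0 of 6 at 72 h, where 8.41% and 11.3% of all genes were. Between the times, 1 of 6 was past 2-fold in WT (Ltc4s, on 10 UMIs in all) against 18.7% of all genes, and 1 of 6 in CCR2-/- mice (Ptgs2, lower) against 10.5%. In Siglecf-high granulocytes at 72 h, 1 of 7 was past 2-fold between the genotypes, against 11% of all genes: Lta4h, at 13.1 CPM in WT (3 UMIs) and 39.6 CPM in CCR2-/- mice, with a log2 ratio of 1.53 whose interval (-0.04 to 3.93) spanned 0. Between 24 h and 72 h in CCR2-/- Siglecf-high granulocytes 0 of 7 were, against 28.4%. In dendritic cell-like cells 2 of 4 were past 2-fold between the genotypes at 24 h (Ptgs2 and Ltb4r1) and 3 of 5 at 72 h (Ptgs1, Ptgs2 and Ltb4r1), all lower in CCR2-/- mice, against 6.59% and 3.84% of all genes. Ptgs2 in these cells stood at 48.7 and 21.1 CPM at 24 h and at 34.5 and 8.45 CPM at 72 h, and 20 of its 49 UMIs in WT at 24 h lay in 1 cell.

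**Figure D3:**
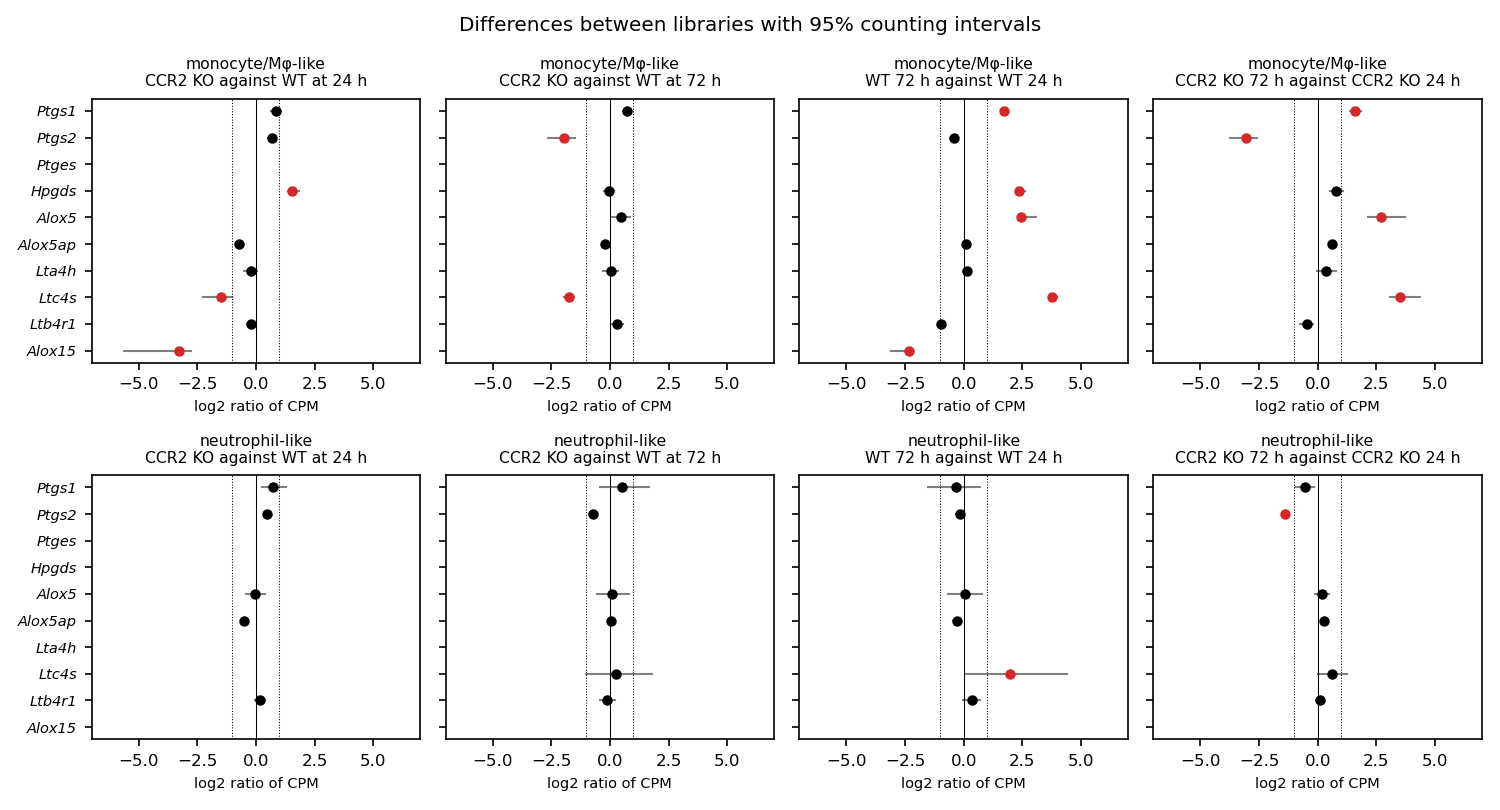
Log2 ratios of CPM between 2 libraries with 95% counting intervals, for monocyte/Mφ-like cells (top) and neutrophil-like cells (bottom), with red points past 2-fold (dotted lines). Genes below 20 CPM in both libraries have no point. In monocyte/Mφ-like cells between times, 5 of 9 points are red in WT and 4 of 8 in CCR2 KO, against 12.7% and 14.6% of all genes. Each neutrophil-like comparison has 5 or 6 points, at most 1 of them red, against 8.41% to 18.7% of all genes.

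The class that held most of a transcript differed between the libraries, as did the number of cells in each class. A share of a gene is to be read beside the share of all UMIs that the class held. For monocyte/Mφ-like cells that was 90.8% and 75.6% in WT at 24 h and 72 h, and 34.9% and 21.9% in CCR2-/- mice. For neutrophil-like cells at 24 h it was 3.4% in WT and 39.3% in CCR2-/- mice, and for Siglecf-high granulocytes at 72 h 1.4% and 11.3%. For dendritic cell-like cells of CCR2-/- mice it was 12.7% at 24 h and 38.1% at 72 h. In WT mice at 24 h monocyte/Mφ-like cells held 50.4% and neutrophil-like cells 44.5% of Ptgs2 UMIs, and in CCR2-/- mice at 24 h these shares were 4.0% and 92.6%. At 72 h Siglecf-high granulocytes held 38.9% of them in WT and 67.4% in CCR2-/- mice. For Ltc4s, monocyte/Mφ-like cells held 97.4% and 95.9% in WT at 24 h and 72 h, against 17.1% and 36.1% in CCR2-/- mice, where neutrophil-like cells (51.4% at 24 h) and Siglecf-high granulocytes (53.2% at 72 h) held the largest shares. Alox5 moved from 53.4% monocyte/Mφ-like in WT to 84.8% neutrophil-like in CCR2-/- mice at 24 h, and Hpgds stayed above 80% monocyte/Mφ-like in the 4 libraries. Lta4h UMIs of CCR2-/- mice lay mostly in dendritic cell-like cells, with 50.7% at 24 h and 68.3% at 72 h.
Over all cells of a library, Ptgs2 stood at 132 CPM in WT and 1014 CPM in CCR2-/- mice at 24 h, and at 113 and 365 CPM at 72 h. All-cell counts of genes past 2-fold were 3 of 8 at 24 h (Ptgs2 and Alox5 higher in CCR2-/- mice, Alox15 lower), against 15% of all genes, and 4 of 8 at 72 h (Ptgs2 and Alox5 higher, Hpgds and Ltc4s lower), against 11.8%. Between the times, 5 of 9 were past 2-fold in WT, the same 5 names as in monocyte/Mφ-like cells, against 10.3%, and 2 of 8 in CCR2-/- mice (Ltc4s higher, Ptgs2 lower), against 10.4%. Alox5ap, at 723 to 751 CPM, was level over the 4 libraries although the class that held most of it differed.

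**Figure D4:**
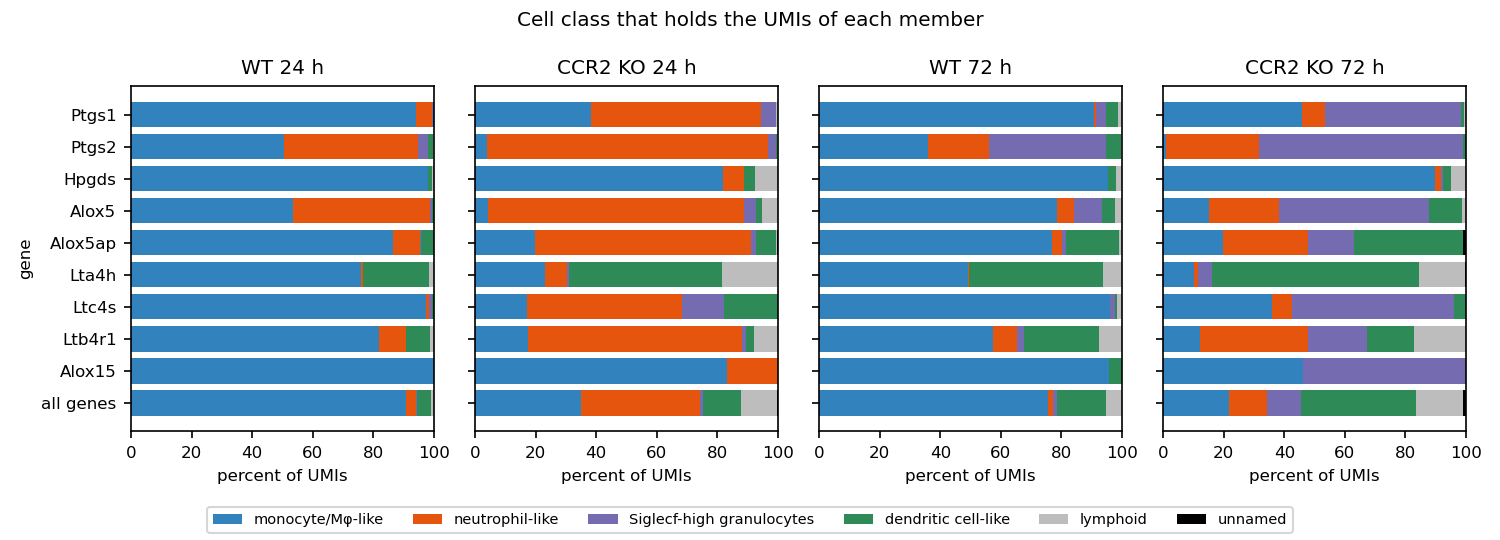
Stacked bars of the percent of each gene's UMIs found in each cell class, 1 panel per library, with the share of all UMIs in the lowest bar. In CCR2 KO mice at 24 h 92.6% of Ptgs2 UMIs are neutrophil-like, in WT at 24 h 44.5%. Ptges is left out, and the Alox15 bar of CCR2 KO at 24 h rests on 6 UMIs.

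Monocyte/Mφ-like cells are a mixture, and the sub-clusters holding most of them differed between the libraries. WT cells at 24 h lay mostly in a sub-cluster led by Csf3 and Il1a (332 cells), the Fabp5 sub-cluster (301) and one led by the interferon genes Cxcl9 and Rsad2 (278). Those of WT at 72 h lay in the Cd206 (377) and Timp2 (126) sub-clusters and one led by Ear2 and Mgl2 (184). CCR2-/- cells at 24 h lay in one led by Inhba and Fabp4 (81) and the Cx3cr1 sub-cluster (49), and at 72 h 73 of 148 lay in one led by Igkc and Igha and genes of dividing cells. The 4 genes of a plasma cell list summed to 236 CPM in that library's monocyte/Mφ-like cells and to at most 4 CPM in the other 3, and their part in its values was not tested. The names are from markers and were rebuilt for these cells, and unnamed ones are given by their leading genes. The 10 genes and Ccr2 were kept out of the genes used for clustering.
Ltc4s was concentrated in the Timp2 sub-cluster, at 1323 CPM, which held 60.9% of the UMIs of the class with 132 of its 2526 cells. It stood at 431 CPM in the sub-cluster led by Cxcl13, Ctla2a and Prg4, at 111 CPM in the Cd206 sub-cluster and at 4.5 CPM in the Csf3-led sub-cluster. In the Cxcl13-led sub-cluster the levels were 411 CPM (361 to 467) in WT 24 h, 513 CPM (388 to 666) in WT 72 h and 450 CPM (332 to 596) in CCR2-/- 72 h, with overlapping intervals. Alox5 was also highest in the Timp2 sub-cluster, at 85.1 CPM and 33.2% of the UMIs of the class.
Hpgds was highest in the Cx3cr1 sub-cluster, at 234 CPM, with 42.8% of its UMIs in the Cd206 sub-cluster at 179 CPM. Within Cx3cr1 cells it stood at 220 CPM (167 to 285) in WT 24 h, 261 CPM (225 to 301) in CCR2-/- 24 h and 203 CPM (163 to 249) in WT 72 h. These intervals overlapped. The class as a whole differed past 2-fold between the genotypes at 24 h and between the times in WT. The Cx3cr1 sub-cluster held 22 of 1278 WT and 49 of 220 CCR2-/- monocyte/Mφ-like cells at 24 h. In WT at 72 h the Cd206 sub-cluster held 68.3% of the Hpgds UMIs of the class in 377 cells, against 3 cells of WT at 24 h. The part of the sub-cluster sizes in the class differences was not tested. Ptgs1 was high in the Cx3cr1 sub-cluster, at 186 CPM. There it differed between the libraries, at 87.3 CPM (55.3 to 131) in WT 24 h and 229 CPM (196 to 267) in CCR2-/- 24 h. It stood at 236 CPM in the Igkc-led sub-cluster, 202 CPM in the Timp2 sub-cluster and 14.2 CPM in the Inhba-led sub-cluster.
Ptgs2 stood at 7.27 CPM in the Cx3cr1 sub-cluster, 176 CPM in the Inhba-led sub-cluster and 88.9 CPM in the Csf3-led sub-cluster. The Ear2-led and Cxcl13-led sub-clusters held both genes, with Ptgs2 at 110.5 and 99.2 CPM and Ptgs1 at 83.8 and 102.9 CPM. In WT at 72 h the Ear2-led sub-cluster held 47.2% of the Ptgs2 UMIs of the class. In the Inhba-led sub-cluster Ptgs2 stood at 189 CPM (159 to 224) in WT and 163 CPM (144 to 184) in CCR2-/- mice at 24 h. Its highest value, 392 CPM, was in 24 cells led by the neutrophil genes S100a9 and Retnlg, and without these cells the monocyte/Mφ-like levels were 71.6, 105, 51.1 and 13.4 CPM in WT 24 h, CCR2-/- 24 h, WT 72 h and CCR2-/- 72 h. A neutrophil marker list summed to 512 to 1189 CPM in monocyte/Mφ-like cells, highest in WT at 24 h.
Ltb4r1 was highest in the Ly6c monocyte sub-cluster, at 261 CPM, and stood at 5.29 CPM in the Cx3cr1 and below 10 CPM in the Cd206 sub-cluster. Alox5ap stood at 1318 CPM (1271 to 1367) in the Ly6c monocyte sub-cluster and 1292 CPM (1214 to 1372) in the Cxcl13-led one, with overlapping intervals. Alox15 lay almost wholly in the Cxcl13-led sub-cluster, which held 97.7% of its UMIs in the class, with 731 CPM in WT 24 h, 348 CPM in WT 72 h and 46.9 CPM in CCR2-/- 72 h. The cells of that sub-cluster had low depth, 0.268 of the median of their libraries, and it was left unnamed. Of a list of peritoneal-type Mφ markers (Gata6, Prg4, Timd4, Icam2, Selp and Garnl3), Prg4 and Selp were among its 10 leading genes. The list that scored highest there was that of Arg1. Whether these cells came from the peritoneal cavity was not tested.

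**Figure D5:**
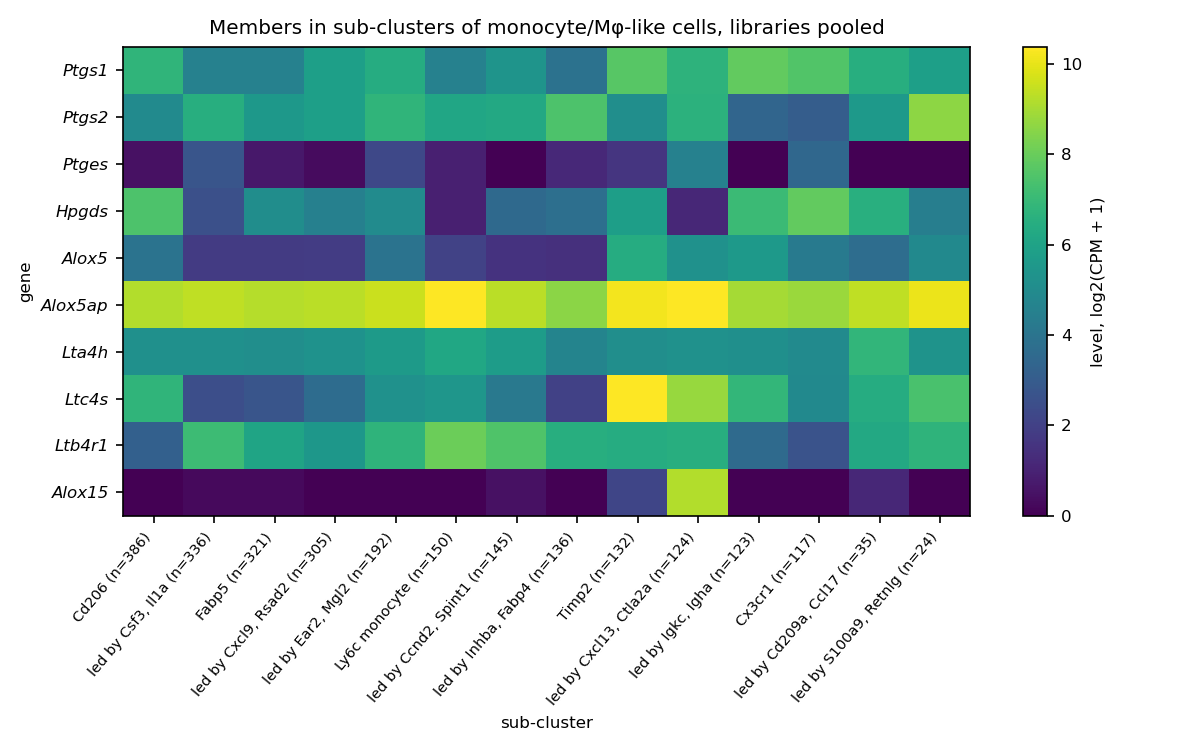
Heat map of log2(CPM + 1) of the 10 genes in the 14 sub-clusters of monocyte/Mφ-like cells, libraries pooled, with the number of cells in brackets. The Timp2 sub-cluster is brightest for Ltc4s (1323 CPM), the Cx3cr1 sub-cluster for Hpgds (234 CPM), and Alox15 is bright in 1 column (584 CPM).

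Other genes of the pathway were described from 3 lists of 41 genes, covering release and synthesis, breakdown and transport, and receptors, of which 37 were in the tables. In monocyte/Mφ-like cells of CCR2-/- against WT mice at 24 h, 1 of 15 tested was past 2-fold higher and 2 lower, where 2.71% of all genes were higher and 1.24% lower, with a median log2 ratio of -0.09. The higher gene was Hpgd, which inactivates prostaglandins, at 26.1 against 2.86 CPM with a log2 ratio of 2.81, and the lower ones were Fam213b, a prostaglandin F synthase, and the formyl peptide and lipoxin receptor Fpr2. At 72 h none of 18 was higher and 2 were lower, Cyp4f18 (-1.38), which inactivates leukotriene B4, and Pla2g7 (-1.34), with a median of -0.30, where 5.4% of all genes were higher and 2.43% lower. Between 24 h and 72 h in WT, 2 of 17 were higher, Hpgd (3.84, from 2.86 to 54.4 CPM) and Pla2g15 (1.36), and 2 lower, Fpr2 (-2.02) and the leukotriene C4 exporter Abcc1 (-1.25), against 6.51% and 6.19% of all genes. In CCR2-/- mice, 4 of 18 were higher, Ggt5, Ptgr1, Mgst3 and Hpgd, and 1, Abcc1 (-1.52), was lower, against 9.87% and 4.71%. Hpgd, like Hpgds, was thus past 2-fold higher in WT at 72 h than at 24 h, and in CCR2-/- than in WT monocyte/Mφ-like cells at 24 h.
In neutrophil-like cells, 2 of 12 were past 2-fold higher and 2 lower in CCR2-/- mice at 24 h, where 6.27% of all genes were higher and 2.14% lower. The higher ones were Abcc1 (1.48) and the cysteinyl leukotriene receptor Cysltr1 (1.39), and the lower ones Ggt1 and Fpr2. At 72 h 1 of 10 was higher and 2 were lower, against 5.71% and 5.54%, and Cysltr1 was among the lower ones. From 24 h to 72 h, 4 of 13 were higher and 3 lower in WT, against 11.8% and 6.91% of all genes, and 1 of 11 higher and 3 lower in CCR2-/- mice, against 4.15% and 6.36%. In the latter Pla2g4a, the phospholipase that releases arachidonic acid, stood at 13.5 against 32.0 CPM (log2 ratio -1.19). Dendritic cell-like cells had 2 of 11 past 2-fold at 24 h and 4 of 13 at 72 h, lower in CCR2-/- mice each time, where 3.08% and 2.73% of all genes were lower. Siglecf-high granulocytes had 1 of 15 higher and 1 lower between the genotypes at 72 h, against 7.37% and 3.61%, and 4 of 14 higher and 1 lower over time in CCR2-/- mice, against 23% and 5.46%.

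Over the 22 combinations of class and library, the genes with the pattern most like a member's were taken by Pearson correlation of log2(CPM + 1) among 9917 genes. The combinations share 4 libraries and 7 classes and are not independent. Ptgs2 was most like Igfbp6 (r = 0.967), Il1b (0.959) and Clec4e (0.9504), Alox5ap most like Pirb (0.968), and Lta4h most like Ptpn4 (0.939). Ltc4s was most like Ncoa4 (0.888), Ptgs1 most like Slc11a1 (0.882), with the Mφ marker Adgre1, which encodes F4/80, at 0.868, and Hpgds most like Arhgap19 (0.873). Alox5 was most like Maml1 (0.899), Ltb4r1 most like S100a6 (0.853) and Alox15 most like Gja1 (0.833).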

How the data were processed

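CD45+ cells of 4 libraries had been profiled by 10x Genomics 3′ sequencing. The authors deposited UMI counts per gene and cell, raw and already filtered to cells with over 200 genes and under 10% mitochondrial UMIs, and the submitters' processing notes name Cell Ranger 3.0.2 and Seurat. From these counts, 12 non-immune cells were removed, and cells were clustered with scanpy 1.11.5 (2000 variable genes without the 10 members and Ccr2, 30 components, 20 neighbours, Leiden resolution 1) and named for the class that at least 50% of their cells were gated to by markers. Siglecf-high granulocytes were kept apart, and sub-clusters whose best marker score led the next by under 0.1 left unnamed, after the data were seen. Scrublet marked 11 of 5799 cells, too few for a working caller, and no doublet was removed. Of 5807 barcodes, 4 occurred in more than 1 library. Class sums were scaled to CPM, and log2 ratios used a pseudocount of 1 CPM, with Clopper-Pearson intervals on the split of UMIs without it. A gene was tested at 20 CPM or more in at least 1 library, so that some qualified only through the library where they were higher. Past 2-fold means a log2 ratio of at least 1 in size. Classes of under 20 cells were not compared. Coordinates are GENCODE release M21 (GRCm38). All members reaching 20 CPM are named, with the 5 genes of the lists with the largest ratios and the 3 most alike genes as candidates for naming. Scripts were tested on simulated data. The members and lists were chosen with earlier results of these data known. Alternatives changed the resolution, gate, clustering, mitochondrial limit, doublet removal, scaling, pseudocount and minimum level, or left out the cell with the most UMIs.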

Additional observations from a re-analysis of the deposited data

Results flagged for a closer look

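Alox5ap in neutrophil-like cells moved in opposite directions with time in the genotypes. From 24 h to 72 h its level was lower in WT mice (1952 to 1576 CPM, log2 ratio -0.31, -0.47 to -0.15) and higher in CCR2-/- mice (1362 to 1643 CPM, 0.27, 0.19 to 0.34), so that the change in CCR2-/- minus that in WT was 0.58 on the log2 scale. With 1 library per group the difference was not tested, and neither change was past 2-fold. The neutrophil clusters that held most cells also differed, and their part in the difference was not tested.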

How the results depend on the processing

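Of the 672 log2 ratios computed under the alternatives, 578 moved by less than their counting interval, 93 moved further and 1 past 2-fold was reversed, Ltc4s in neutrophil-like cells of WT mice from 24 h to 72 h, at -1.86 with the libraries clustered one at a time. Some of the 578 could not move. The 56 ratios with no minimum level are the main ones, as that setting changes only which genes are tested. Counting Siglecf-high granulocytes as neutrophil-like leaves the monocyte/Mφ-like ratios as they were. Of those not past 2-fold, 44 had the other sign under an alternative, 5 of them past 2-fold there. The counts of members past 2-fold in monocyte/Mφ-like cells ranged from 2 to 4 (24 h, main 3), 2 to 4 (72 h), 5 to 6 (WT over time) and 4 to 5 (CCR2-/- over time), and the 4 at 72 h came from the limit of 5% mitochondrial UMIs, which left 40 CCR2-/- cells of the class and also moved the CCR2-/- ratios over time (Ptgs1 0.58, Hpgds -0.55, Alox5 1.33, Ltb4r1 1.10). In neutrophil-like cells the small counts moved more. Between the genotypes at 24 h, where the count was 0, it was 1 with Siglecf-high granulocytes included and 2 with no minimum level. At 72 h, also 0, it was 1 at a resolution of 2 and without the richest cell, and 2 with each cell gated by its own markers, with each library clustered alone and with no minimum. Over time in WT the count of 1 became 0 at a resolution of 0.5 and under the 5% limit, and 2 with the gate, with Siglecf-high granulocytes included, with no minimum and without the richest cell. Over time in CCR2-/- mice the count of 1 became 2 at a resolution of 0.5 and with libraries clustered alone, and 3 with the gate and with Siglecf-high granulocytes included. The cause of these moves was not tested. The share of all genes past 2-fold under each alternative is not given here, so these counts stand without it. No paired analysis was possible because each group had 1 library. Depth limits Alox15, Ptges and the CCR2-/- values of Ltc4s at 24 h, which rest on few UMIs.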

Other observations

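Ltb4r1 in innate lymphoid cell-like cells stood at 272 CPM in CCR2-/- mice at 24 h (18 cells, 41 UMIs) and at 279 and 185 CPM in WT and CCR2-/- mice at 72 h (10 and 17 cells). In T cell-like cells it was concentrated in the cluster led by Trdc and Calca, with 448, 354 and 328 CPM in CCR2-/- 24 h, WT 72 h and CCR2-/- 72 h. The T cell-like class of CCR2-/- mice at 24 h also held transcripts of mast cells and basophils, Cpa3 at 345 CPM and Mcpt8 at 158 CPM, and Alox5 in it stood at 39.1 CPM, with 23 UMIs in 3 cells.

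After thinning to 1000 UMIs, Alox5ap and Ltc4s were seen together in 10.2% (8.31% to 12.5%) of monocyte/Mφ-like cells of WT mice at 72 h, where the product of their separate shares was 8.09%. In CCR2-/- mice at 72 h the values were 9.16% (4.82% to 15.5%) and 7.03%, and in Siglecf-high granulocytes of that library 8.16% (5.44% to 11.6%) and 10.5%. Alox5 and Alox5ap were seen together in 6.27% (5.002% to 7.74%) of neutrophil-like cells of CCR2-/- mice at 24 h, with a product of 5.67%.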
